A study of Mus musculus with 21 samples.

Results

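The genes described here are Wdfy1, Gabra2, Crb1, Nnt, Entpd4, Ide, Pisd-ps1, Zkscan3 and Gm15446, 9 of the 55385 genes listed for the delayed treatment experiment and of the 33829 listed for the pre-treatment experiment. They were chosen by name, either because they set the control mice of the delayed treatment experiment apart from the other mice in an earlier look at the same data, or because they are known to vary between substrains of C57BL/6 mice. Any difference between those control mice and the other mice of that experiment is therefore a description, and a count of genes past a threshold in that contrast is printed as background only. All 9 genes had enough counts to be tested in both experiments. The labels give the strain as C57BL/6 and name no substrain, and counts per gene do not read a genotype.

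RNA-seq was performed on the midbrain (nigral tissue dissected by hand) of 21 male C57BL/6 mice aged 6 weeks, in 7 groups of 3 mice, to compare MPTP treated mice with and without irisin. MPTP is a neurotoxin that damages dopaminergic neurons, and irisin is a peptide released from the muscle protein FNDC5. All mice were wild type and received intraperitoneal injections for 10 days. In the pre-treatment experiment, control mice received ddH2O for 10 days, MPTP treated mice received ddH2O for 5 days and then MPTP at 30 mg/kg per day for 5 days, and the third group received irisin at 200 µg/kg per day for 5 days and then MPTP for 5 days. In the delayed treatment experiment, control mice received ddH2O for 10 days, the irisin group received ddH2O for 5 days and then irisin for 5 days, the MPTP group received MPTP for 5 days and then ddH2O for 5 days, and the last group received MPTP for 5 days and then irisin for 5 days. Doses were the same in both experiments. The model is an acute toxin given to young mice, and each library is 1 animal.

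Inbred C57BL/6 mice have been bred apart for many generations at different suppliers, and the colonies have come to differ at a limited number of loci. C57BL/6J mice carry a deletion of several exons of Nnt, the enzyme of the inner mitochondrial membrane that uses the proton gradient to make NADPH, and an intronic change that lowers Gabra2, the α2 subunit of the GABA-A receptor. C57BL/6N mice carry a frameshift in Crb1, a membrane protein of the apical polarity complex, and the copy number of Ide, the protease that degrades insulin and amyloid β, has varied within C57BL/6J. Wdfy1 is an endosomal protein with WD repeats and a FYVE domain, Entpd4 is a nucleoside diphosphatase of the Golgi and lysosomal membranes, Pisd-ps1 is a transcribed pseudogene of the mitochondrial phosphatidylserine decarboxylase Pisd, Zkscan3 is a KRAB and SCAN zinc finger repressor, and Gm15446 is a predicted protein-coding gene.

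In GRCm38 coordinates, Wdfy1 lies at chr1:79702262-79776143 and Crb1 at chr1:139197056-139377077, both on the minus strand. Gabra2 (chr5:70957597-71095849, minus strand) and Gm15446 (chr5:109923400-109943936, plus strand) share chromosome 5. Nnt (chr13:119335448-119408997) and Zkscan3 (chr13:21387003-21402731) share chromosome 13 and the minus strand. Pisd-ps1 lies at chr11:3125904-3130146 and Entpd4 at chr14:69337174-69367270, both on the plus strand, and Ide at chr19:37268743-37330613 on the minus strand. The members thus occupy 6 chromosomes, and members that share a chromosome are not neighbours.

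For 4 members, part of the transcript also occurs in a related gene, so the stretches that a read could come from are shown first. In GENCODE M21, each of the 8304 windows of 100 bases in Entpd4 transcripts also occurs in a transcript of Entpd4b, a copy on the same chromosome. The corresponding share was 16.2% for Gm15446, all with the zinc finger gene Zfp932, and 0.761% for Zkscan3, with Zkscan4. It was 0% for Wdfy1, Crb1, Nnt, Ide and Pisd-ps1 and 0.114% for Gabra2. Genes were compared by name, so a second annotated entry that also carries the name Nnt was left out. Of the windows of 100 bases in the first Nnt entry, 46.1% also occur in that second entry. With windows of 50 bases, 11.4% of Pisd-ps1 windows occurred elsewhere, mostly in Pisd, and 32.3% of Gm15446 windows. The longest identical run was 1839 bases of coding sequence for Entpd4 and Entpd4b, 195 for Gm15446 and Zfp932, 132 for Zkscan3 and Zkscan4, and 97 for Pisd-ps1 and Pisd. The stretches below are 120 bases each, written 5′ to 3′ on the strand of the gene. They come from exon 3 of Entpd4 (chr14:69349073-69349192) and exon 3 of Entpd4b (chr14:69567323-69567442), exon 4 of Gm15446 (chr5:109942616-109942735) and exon 4 of Zfp932 (chr5:110009089-110009208), and exon 1 of Pisd-ps1 (chr11:3128990-3129109) and exon 3 of Pisd (chr5:32739193-32739312, minus strand). A capital marks the base at which the members of a pair differ.
Entpd4: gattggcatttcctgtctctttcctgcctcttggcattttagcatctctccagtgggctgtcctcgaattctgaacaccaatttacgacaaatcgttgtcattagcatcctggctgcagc
Entpd4b: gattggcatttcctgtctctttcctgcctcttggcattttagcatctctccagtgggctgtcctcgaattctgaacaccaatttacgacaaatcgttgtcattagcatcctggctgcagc
Gm15446: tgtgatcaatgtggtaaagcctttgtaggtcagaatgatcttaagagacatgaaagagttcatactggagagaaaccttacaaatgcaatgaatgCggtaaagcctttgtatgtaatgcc
Zfp932: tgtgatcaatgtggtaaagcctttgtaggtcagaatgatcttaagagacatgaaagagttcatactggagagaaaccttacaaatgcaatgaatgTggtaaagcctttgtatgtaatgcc
Pisd-ps1: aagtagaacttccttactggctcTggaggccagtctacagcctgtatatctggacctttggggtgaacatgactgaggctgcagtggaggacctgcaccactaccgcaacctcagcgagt
Pisd: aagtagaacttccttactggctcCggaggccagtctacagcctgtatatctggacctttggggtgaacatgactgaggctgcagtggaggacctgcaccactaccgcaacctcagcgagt
The Entpd4 and Entpd4b stretches had 0 differences. Counted from 1 at the 5′ end, with the member first, the Gm15446 pair differed by C96T and the Pisd-ps1 pair by T24C. Counts of Entpd4 and Entpd4b are uncertain one by one, since a read from Entpd4 cannot be placed. Whether Entpd4b has sequence of its own was not examined. The sum of both is given below beside Entpd4.

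In M (mega), counts per mouse totalled 66.7 to 75.6 M in the pre-treatment experiment and 48.8 to 77.2 M in the delayed treatment experiment, and the control mice of the latter had 48.8 to 55.4 M. The share of mitochondrial counts was 8.48 to 9.5% in those control mice, 8.04 to 8.71% with irisin alone, 7.65 to 7.8% with MPTP and 7.87 to 8.68% with MPTP and then irisin. Levels are given as CPM, counts per M counts after scaling by TMM, and the experiments were scaled separately, so that their levels stand side by side without a test. Summed over 7 markers of dopaminergic neurons, none of which was at 0 in all mice, the control mice of the delayed treatment experiment had 667 to 701 CPM and the other 9 mice 454 to 631 CPM, with no single marker above all other mice. For oligodendrocyte markers the ranges were 9016 to 9935 and 8862 to 10728 CPM, for astrocytes 1125 to 1344 and 1029 to 1264 CPM, and for microglia 41.0 to 45.5 and 39.6 to 71.2 CPM. The 3 markers of ependyma and choroid plexus summed to 250 to 1487 and 59.2 to 1631 CPM. The part of cell content in the levels below was not tested, and in bulk tissue fewer cells of a type and less RNA per cell cannot be told apart.

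In the delayed treatment experiment, 7 of the 9 members had control mice that did not overlap with any of the other 9 mice, 3 of them higher and 4 lower. Of all 21921 genes tested in that experiment, 1.71% had control mice above all others and 1.54% below. An adjusted p of 0.05 in the contrast of control mice with the other 9 was passed by 40 genes (0.182% of those tested, 11 higher and 29 lower in control mice), and 6 of them were members. Since the members were chosen from this contrast, nothing is read from these counts. The control mice were also the group without MPTP and without irisin, so treatment and any other difference between these 3 mice and the rest cannot be told apart.

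Among the members higher in control mice, Wdfy1 was at 79.7, 74.2 and 73.8 CPM in the 3 control mice. It was at 24.7, 21.5 and 22.3 CPM with irisin alone, at 23.2, 21.6 and 19.2 CPM with MPTP and at 21.4, 19.96 and 22.1 CPM with MPTP and then irisin. The 3 treated groups lay on one level and the control mice 3.49-fold above it (log2 difference 1.80, SE 0.07). In the pre-treatment experiment, Wdfy1 was at 20.97, 3.88 and 33.4 CPM in control mice, 37.4, 26.3 and 32.9 CPM with MPTP and 35.8, 31.8 and 24.6 CPM with irisin and then MPTP. The lowest of these 9 values belonged to control mouse 2 and was far below the rest, and no mouse of this experiment reached the level of the control mice of the delayed treatment experiment.

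Gabra2, whose subunit is part of inhibitory GABA-A receptors, was at 55.0, 67.6 and 72.3 CPM in the control mice of the delayed treatment experiment. The other mice had 37.3, 27.8 and 27.4 CPM with irisin alone, 24.7, 30.2 and 27.1 CPM with MPTP, and 31.8, 30.0 and 28.2 CPM with MPTP and then irisin. The control mice were 2.21-fold higher (log2 difference 1.14, SE 0.11) without overlap. In the pre-treatment experiment all 9 mice lay between 32.9 and 38.5 CPM, with group means of 36.7 ± 2.18 in control mice, 36.3 ± 1.53 with MPTP and 34.9 ± 2.02 CPM with irisin and then MPTP (SD, n = 3).

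Pisd-ps1 was at 60.6, 43.3 and 64.3 CPM in the control mice, and at 17.7, 22.2 and 15.9 CPM with irisin alone, 18.8, 20.0 and 19.1 CPM with MPTP and 21.7, 24.7 and 14.3 CPM with MPTP and then irisin. This was a 2.9-fold higher level in control mice (log2 difference 1.53, SE 0.15), and again the 3 treated groups overlapped one another. Pisd itself was at 63.7 to 71.4 CPM in control mice and 53.5 to 61.3 CPM in the other 9, and the further pseudogene Pisd-ps2 at 9.21 to 15.1 and 4.61 to 8.59 CPM, both without overlap. The pre-treatment mice had 18.9 to 29.9 CPM of Pisd-ps1, with a median of 23.2 CPM, and so lay near the treated mice of the delayed treatment experiment.

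**Figure D1:**
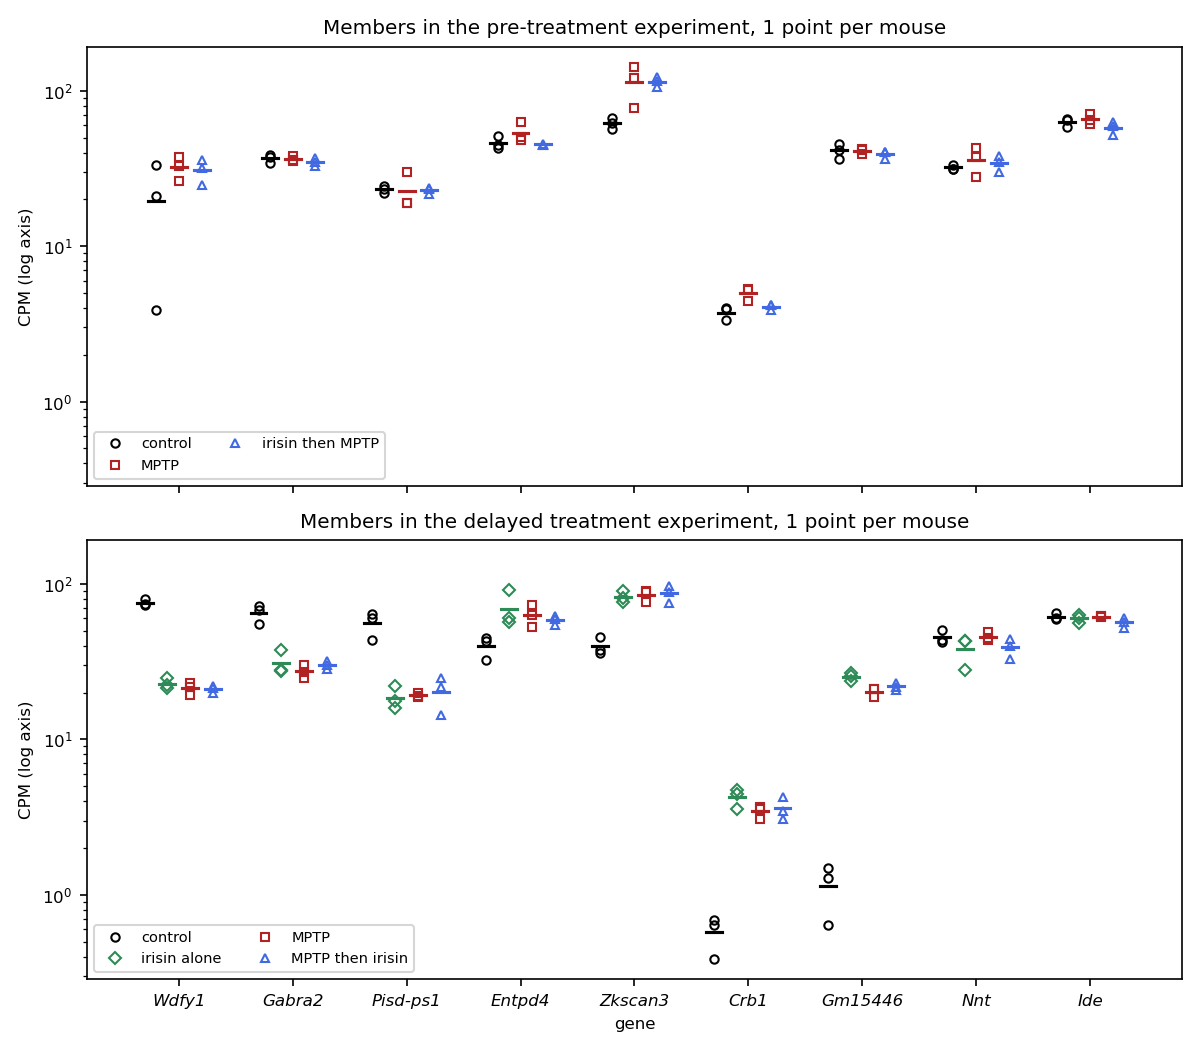
CPM of the 9 members (log axis) in each mouse of the pre-treatment experiment (top) and the delayed treatment experiment (bottom), with 1 symbol per mouse and a bar at the mean of each group of 3. In the lower panel the black circles of the control mice stand above all other mice for Wdfy1, Gabra2 and Pisd-ps1, below them for Entpd4, Zkscan3, Crb1 and Gm15446, and among them for Nnt and Ide, whereas in the upper panel only Zkscan3 has all 3 control mice on one side of the other 6.

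Among the members lower in control mice, Gm15446 showed the widest gap. It had 0.642, 1.49 and 1.28 CPM in control mice, from 31, 78 and 70 counts. The other mice had 26.8, 25.4 and 23.8 CPM with irisin alone, 21.1, 21.05 and 18.7 CPM with MPTP, and 23.1, 20.9 and 21.8 CPM with MPTP and then irisin, which is 19.6-fold more (log2 difference of control mice -4.29, SE 0.22). The few counts of the control mice were above 0 in each of them, and the gene is one whose sequence Zfp932 shares in part. Zfp932 was at 20.3 to 22.7 CPM in control mice and 12.6 to 21.5 CPM in the other 9, with overlap. In the pre-treatment experiment Gm15446 was at 36.6 to 45.8 CPM in all 9 mice, the control mice included.

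Crb1 was a lowly expressed gene in every mouse, at 0.642, 0.689 and 0.385 CPM (31, 36 and 21 counts) in the control mice. It reached 4.70, 4.49 and 3.57 CPM with irisin alone, 3.59, 3.66 and 3.10 CPM with MPTP and 4.29, 3.08 and 3.46 CPM with MPTP and then irisin. The control mice were 6.55-fold lower (log2 difference -2.71, SE 0.22). All 9 mice of the pre-treatment experiment, with 3.33 to 5.27 CPM, lay in or near the range of the treated mice.

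Zkscan3 was at 37.6, 45.8 and 35.8 CPM in the control mice, 76.0, 90.1 and 81.7 CPM with irisin alone, 89.8, 89.2 and 76.6 CPM with MPTP, and 97.5, 75.2 and 89.5 CPM with MPTP and then irisin. The control mice were 2.14-fold lower (log2 difference -1.10, SE 0.11). Its neighbour in sequence, Zkscan4, was at 3.66 to 4.70 CPM in control mice and 3.04 to 5.01 CPM in the others, with overlap.

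Entpd4 differed least among the 7, at 42.7, 32.6 and 45.0 CPM in the control mice. The other mice had 56.98, 60.7 and 90.9 CPM with irisin alone, 63.3, 73.6 and 52.7 CPM with MPTP and 54.2, 59.1 and 62.1 CPM with MPTP and then irisin. The control mice lay 1.59-fold lower (log2 difference -0.67, SE 0.16). Entpd4 and Entpd4b together were at 87.6 to 97.3 CPM in control mice, 133 to 216 CPM in the other 9 and 103 to 147 CPM in the pre-treatment mice, a log2 ratio of means of -0.72 between control and other mice. Entpd4 took 37.2 to 46.4% of this sum in control mice and 36.1 to 43.1% in the other 9. This split depends on how reads shared by the copies were placed, so it does not show which copy differed.

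Of the members known from other colonies, Ide did not separate the groups. It was at 59.2, 60.2 and 65.2 CPM in the control mice, 56.2, 63.5 and 60.5 CPM with irisin alone, 61.8, 61.6 and 61.9 CPM with MPTP, and 57.1, 60.4 and 52.3 CPM with MPTP and then irisin (log2 difference of control mice 0.05, SE 0.06). Among all 12 mice the highest value was 1.25 times the lowest. Fgfbp3, the neighbour of Ide whose copy number varies with it, was at 2.37 to 3.51 CPM in these 12 mice and at 3.75 to 4.74 CPM in the 9 pre-treatment mice.

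Nnt was at 50.6, 42.6 and 43.7 CPM in the control mice of the delayed treatment experiment, 28.0, 42.8 and 43.1 CPM with irisin alone, 43.6, 44.9 and 48.9 CPM with MPTP, and 39.8, 32.9 and 44.4 CPM with MPTP and then irisin. The control mice overlapped with the others (log2 difference 0.16, SE 0.13). The low values, 28.0 and 32.9 CPM, belonged to irisin mouse 1 and to MPTP and irisin mouse 2, and the other 10 mice had 39.8 to 50.6 CPM. These were also the only mice with counts on the second of 2 gene entries that carry the name Nnt. In irisin mouse 1 the first entry held 235 counts and the second 1235 (84.0% of the sum), and in MPTP and irisin mouse 2 they held 310 and 1369 (81.5%). The 10 remaining mice had 2226 to 3522 counts on the first entry and 0 on the second.

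The annotation gives the first entry of Nnt 5 transcripts with 7037 exon bases and the second entry 1 transcript of 17 exons with 3339 exon bases, all of which lie inside exons of the first. Per length, the second entry was at 6.23 and 7.12 FPKM (fragments per kilobase and per M fragments) in the mice that had it. The first entry was at 0.556 and 0.759 FPKM in these mice and at 5.06 to 6.31 FPKM in the other 10. Of the other 55374 genes of that table, 42 (0.0758%) were at 0 in at least 1 mouse and at 50 counts or more in all remaining mice, and 1 of them, Gm49686, was at 0 in exactly these 2 mice (named after its values were seen). None had at least 50 counts in each of these 2 mice and 0 in the other 10. Whether the lower sum in these mice comes from how reads were divided between the entries was not tested. In the pre-treatment table Nnt has 1 entry, at 27.9 to 42.6 CPM. Counts on the exons that are deleted in C57BL/6J cannot be read from totals per gene.

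**Figure D2:**
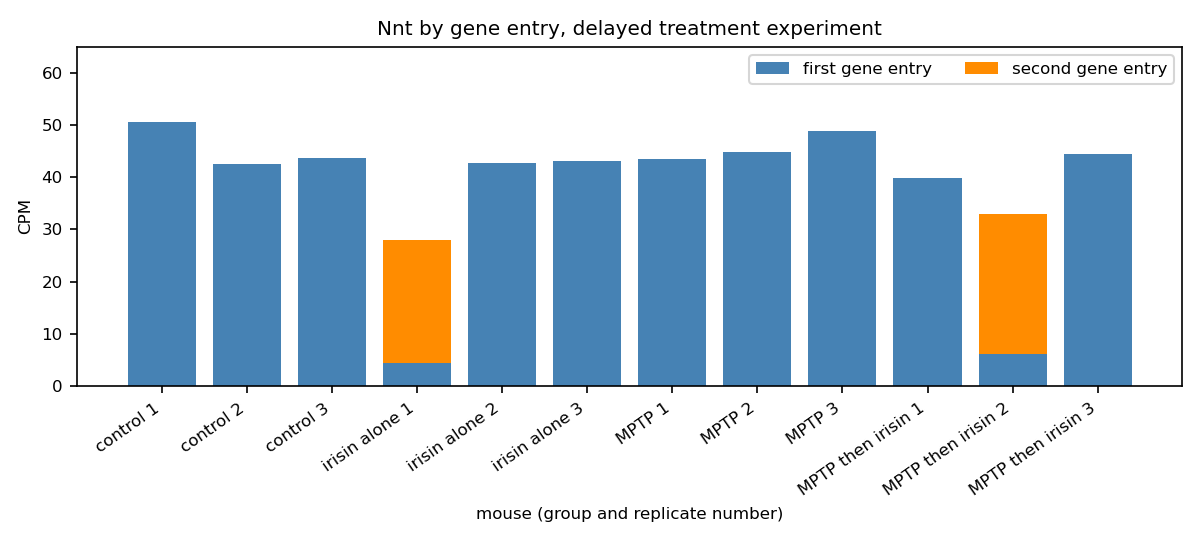
Nnt CPM in each of the 12 mice of the delayed treatment experiment, stacked by the first and the second gene entry, with the group and replicate number under each bar. The second entry is above 0 in irisin alone 1 and MPTP then irisin 2, whose bars reach 28.0 and 32.9 CPM while the other 10 reach 39.8 to 50.6 CPM.

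The genes beside the members were examined to see how far along the chromosome the difference reached. Within 500 kb of a member lay 3 to 26 tested genes, 123 in all. Of these, 0 had control mice above all others and 5 had control mice below all others, near Entpd4 (3) and Gm15446 (2), beside 1.71% and 1.54% of all genes. Entpd4b is 1 of the 3 near Entpd4, and reads of Entpd4 cannot be told from reads of the sequence it shares with Entpd4b. The nearest tested genes of Wdfy1, which were Mrpl44 (overlapping it), Ap1s3 and Serpine2, had log2 differences of 0.07, -0.14 and 0.04, against 1.80 for Wdfy1. For Gabra2, the subunit gene Gabrg1, 115 kb away, was at 33.8 to 34.5 CPM in control mice and 14.0 to 42.2 CPM in the others, and Cox7b2 was near 0 in all mice. Dennd1b and Zbtb41 beside Crb1 had log2 differences of -0.22 and -0.09, Paip1 and, 546 kb away, Fgf10 beside Nnt 0.04 and -0.20, March5, Kif11 and the overlapping pseudogene Rpl10-ps6 beside Ide -0.07, -0.15 and -0.20, Zscan12 and Pgbd1 beside Zkscan3 -0.24 and -0.26, and Sfi1 beside Pisd-ps1 0.15. The median absolute log2 difference of all tested genes was 0.15, and for each of these neighbours the control mice overlapped with the others. Members were chosen in part on this contrast and neighbours were not. A wider difference at a member than beside it therefore largely follows from the choice.

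Beside Entpd4, the overlapping gene Gm16867 was at 0.0828 to 2.28 CPM in control mice and 3.07 to 40.7 CPM in the other 9, and Gm27177, 215 kb away beyond Entpd4b, at 0.207 to 2.05 and 21.7 to 50.01 CPM. The nearest genes on either side of Entpd4, Gm16677 and Gm37847, were at most at 1.505 CPM in any mouse and overlapped between the groups. Whether counting used the strand is not given in the sources used here, so reads of Entpd4 and of genes that overlap it cannot be told apart. Beside Gm15446, the gene 1010001B22Rik, 51.6 kb away, was at 0 in all 3 control mice and at 0.196 to 0.705 CPM in the other 9, while Gm26779 on the other side had a log2 difference of -0.35 with overlap. Golga3, 233 kb away, was at 65.9 to 72.9 and 76.1 to 88.4 CPM.

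**Figure D3:**
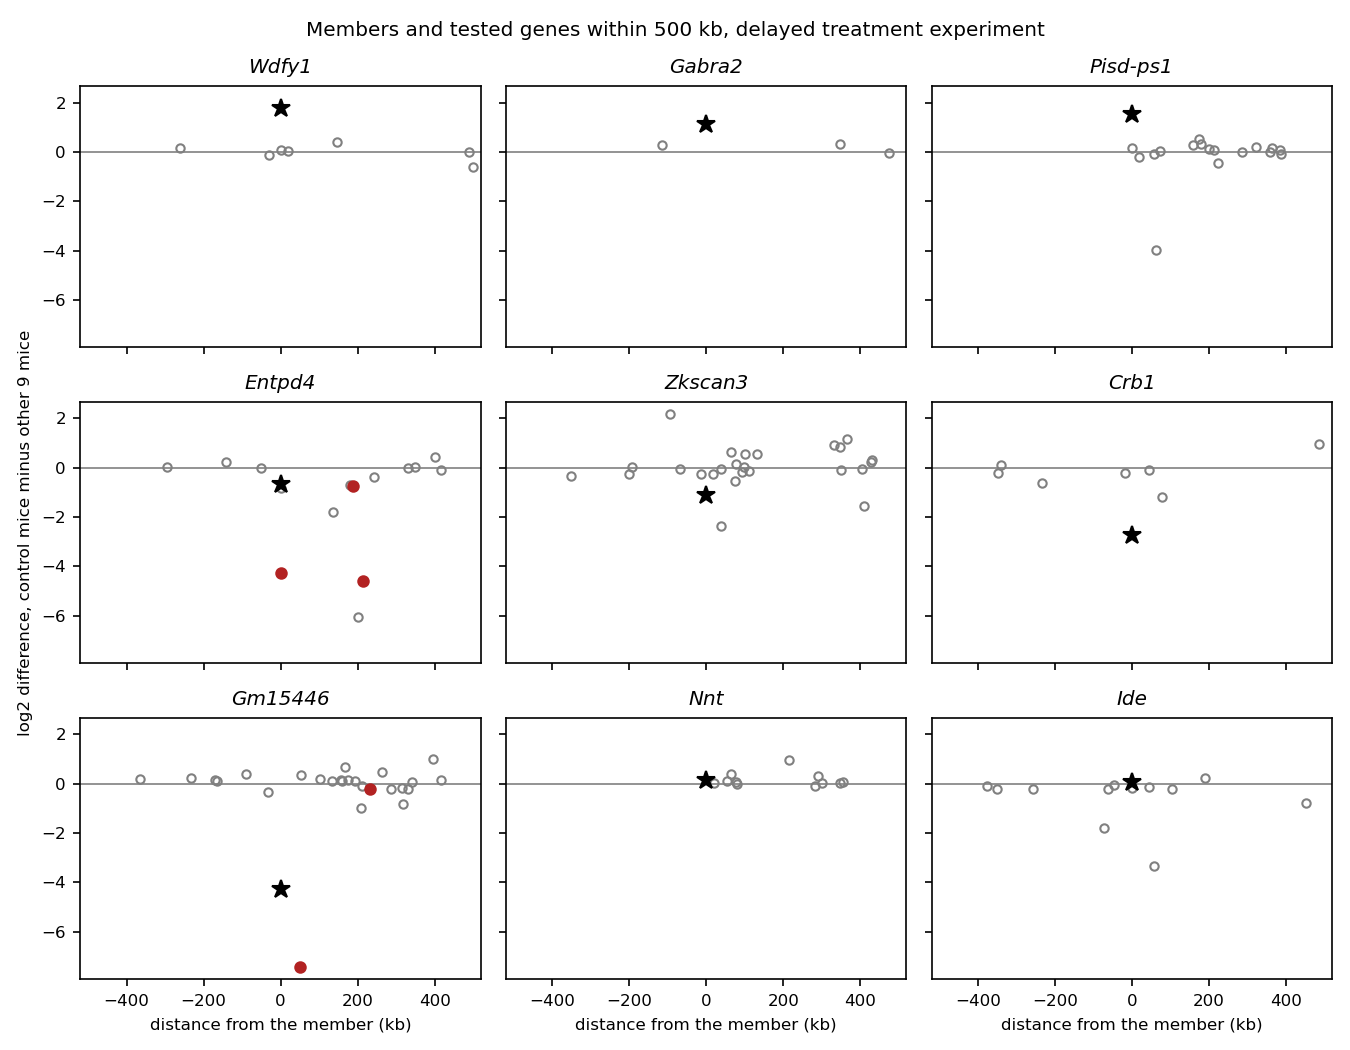
Log2 difference between the 3 control mice and the other 9 mice of the delayed treatment experiment for each member (star) and each tested gene within 500 kb (circles), by distance from the member in kb, with filled red circles where the control mice did not overlap with the other 9. Filled circles appear near Entpd4 and Gm15446 only, 5 of 123 genes in all, and the stars of Wdfy1, Gabra2 and Pisd-ps1 stand above the genes around them. Members were chosen in part on this contrast and the other genes were not, so this height largely follows from the choice.

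The 6 comparisons between groups that leave out the control mice of the delayed treatment experiment were tested in edgeR (quasi-likelihood, two-sided), with p-values adjusted over all tested genes. Comparisons within an experiment share groups. A choice of genes whose control mice stood apart from the other 9 mice also favours genes with little spread among those 9, so the comparisons of the delayed treatment experiment are not free of it. In the delayed treatment experiment, 0 of 9 members passed an adjusted p of 0.05 for MPTP and then irisin against MPTP (0.00456% of all genes passed), for MPTP and then irisin against irisin alone (0.00456%) or for MPTP against irisin alone (0.0365%). In each of these comparisons 0 members had an unadjusted p under 0.05 in edgeR, beside 3.91%, 3.88% and 4.84% of all genes, and 0 passed with DESeq2 or limma. The log2 fold changes of the 9 members lay between -0.23 and 0.13, between -0.25 and 0.12, and between -0.32 and 0.27, and the lowest adjusted p of any member was 0.984. The widest values were those of Gm15446 (log2 fold change -0.32, SE 0.20) and Nnt (0.27, SE 0.16) for MPTP against irisin alone. The irisin group of the latter comparison holds irisin mouse 1, with its counts on both entries. Likewise, the group given MPTP and then irisin holds MPTP and irisin mouse 2, with counts on both entries. That mouse enters the Nnt value of -0.23 (SE 0.16) for MPTP and then irisin against MPTP. For Wdfy1 the SE was 0.09 in each of the 3 comparisons, with values of -0.01, -0.11 and -0.10, against 1.80 between control and other mice.

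In the pre-treatment experiment, 0 of 9 members passed for MPTP against control mice (0.0221% of all genes passed), for irisin and then MPTP against MPTP (0.0707%) or for irisin and then MPTP against control mice (0.0707%). At an unadjusted p under 0.05 there were 2, 0 and 1 members, beside 6.03%, 6.22% and 7.12% of all genes. Zkscan3 had the largest values, and was the only member whose 3 control mice lay below all other 6, as did 1.69% of all genes. It was at 61.7, 67.2 and 56.7 CPM in control mice, 121, 142 and 77.2 CPM with MPTP and 116, 106 and 122 CPM with irisin and then MPTP. The log2 fold change was 0.88 (SE 0.19) for MPTP against control mice with an adjusted p of 0.579 in edgeR, and 0.89 (SE 0.19) for irisin and then MPTP against control mice with an adjusted p of 0.277. With irisin before MPTP, Zkscan3 differed from MPTP alone by 0.01 (SE 0.19). For MPTP against control mice, the edgeR result depended on 1 mouse. Without MPTP mouse 3, the mouse at 77.2 CPM, the value for MPTP against control mice was 1.08 with an adjusted p of 0.0307. For irisin and then MPTP against control mice, the edgeR adjusted p was 0.0507 without that mouse and 0.0538 with only the 2 compared groups. Leaving out any other mouse gave 0.206 to 0.672 in edgeR for this comparison. DESeq2 was run without the edgeR filter on low counts and kept its own default filter on mean counts. It gave adjusted p-values of 0.0107 and 0.00367 for the comparisons with control mice.

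Crb1 was at 3.92, 3.33 and 3.97 CPM in control mice, 5.24, 4.47 and 5.27 CPM with MPTP and 3.87, 4.18 and 4.18 CPM with irisin and then MPTP. The MPTP mice did not overlap with the control mice, as was the case upward for 2 of the 9 members and for 5.71% of all genes, and the log2 fold change was 0.42 (SE 0.14, edgeR adjusted p = 0.819). With irisin and then MPTP, the mice lay above the control mice for 1 of 9 members, Zkscan3, beside 6.65% of all genes. The mice given irisin before MPTP lay below the MPTP mice for Crb1 and Entpd4, 2 of 9 members beside 7.08% of all genes, with log2 fold changes of -0.29 (SE 0.14) and -0.25 (SE 0.11) and edgeR adjusted p-values of 0.829 and 0.809. Entpd4 was at 44.5, 51.2 and 43.0 CPM in control mice, 48.2, 50.1 and 62.6 CPM with MPTP and 45.1, 44.7 and 45.7 CPM with irisin and then MPTP.

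Wdfy1 varied more than any other member in this experiment, its highest value being 9.65 times its lowest, and its log2 fold changes against control mice had wide errors. They were 0.73 (SE 0.58, edgeR adjusted p = 0.912) with MPTP and 0.66 (SE 0.58, edgeR adjusted p = 0.884) with irisin and then MPTP, and 0.25 and 0.18 without control mouse 2. That mouse had 38.5 CPM of Gabra2, 3.33 CPM of Crb1 and 45.8 CPM of Gm15446, which were the highest, the lowest and the highest of the 9 values of these members but lay close to those of the next mouse. The remaining members, Gabra2, Nnt, Ide, Pisd-ps1 and Gm15446, had log2 fold changes between -0.18 and 0.16 in the 3 comparisons and adjusted p-values of at least 0.875.

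**Figure D4:**
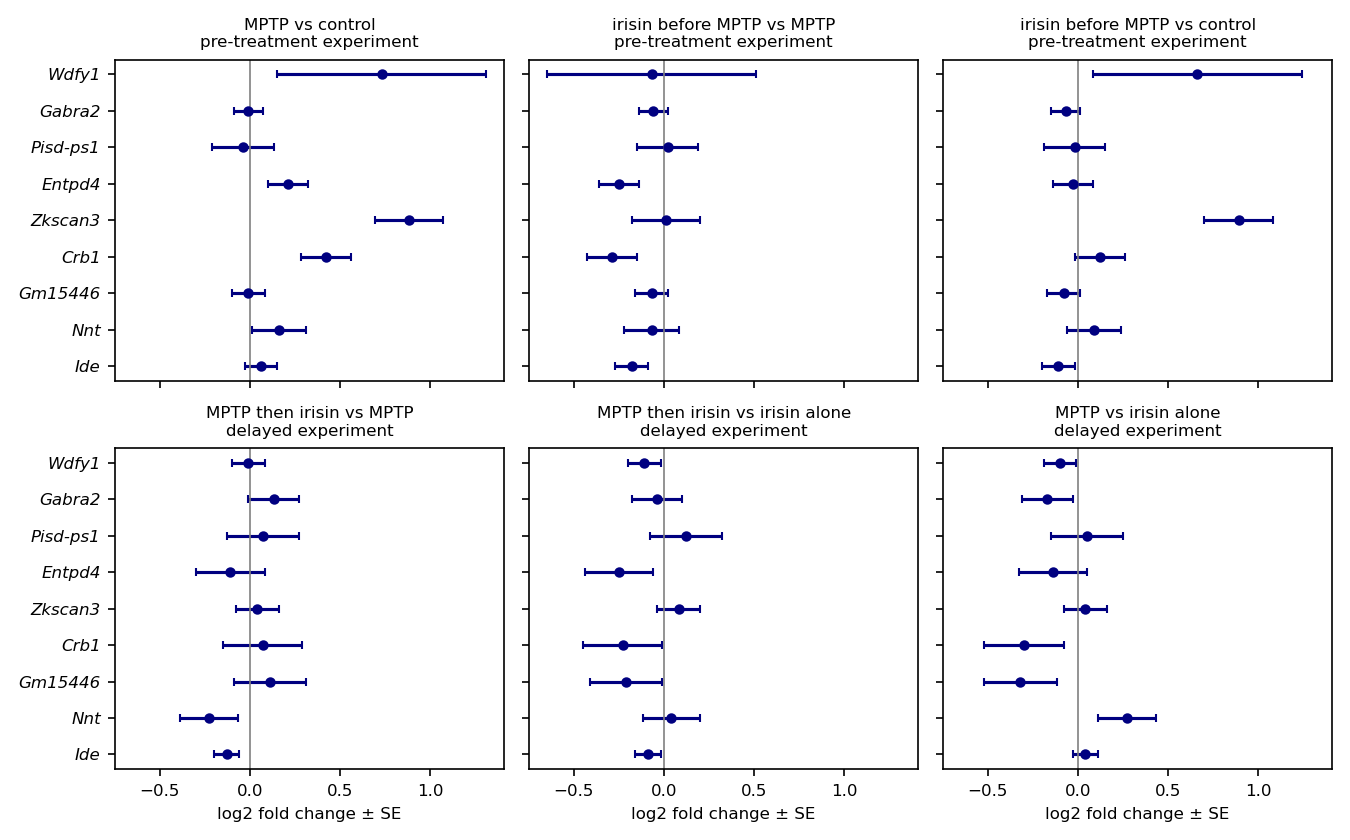
Log2 fold change with SE (horizontal axis) of each member in the 6 tested comparisons, 3 mice against 3, with a grey line at 0. Zkscan3 stands at 0.88 and 0.89 in the comparisons of MPTP mice, without and with irisin, with the control mice of the pre-treatment experiment, Wdfy1 has the widest bars there, and all values of the delayed treatment experiment lie between -0.32 and 0.27.

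Levels of different genes were compared per length, as FPKM. In the 9 pre-treatment mice the medians ran from 11.8 FPKM for Pisd-ps1 and for Zkscan3 over 9.60 for Gm15446, 7.35 for Ide, 5.06 for Entpd4, 4.35 for Wdfy1, 4.28 for Nnt and 4.14 for Gabra2 to 0.257 for Crb1. Neighbours in this order overlapped between mice, except Gm15446 (8.62 to 10.5 FPKM) with Ide (6.12 to 8.29 FPKM) and Gabra2 (3.83 to 4.42 FPKM) with Crb1 (0.198 to 0.321 FPKM). Zkscan3 had a mean of 6.85 FPKM in control mice and 12.7 FPKM in both other groups, so in control mice it stood below Gm15446 (9.67 FPKM) and Ide (7.40 FPKM). In the control mice of the delayed treatment experiment, Pisd-ps1 was at 28.0 ± 5.51 FPKM and Wdfy1 at 10.3 ± 0.45, followed by Gabra2 at 7.47 ± 1.02, Ide at 7.20 ± 0.353, Nnt at 5.70 ± 0.537, Zkscan3 at 4.38 ± 0.598 and Entpd4 at 4.36 ± 0.703 FPKM (SD, n = 3). Gm15446, at 0.261 ± 0.101 FPKM, and Crb1, at 0.0335 ± 0.0101 FPKM, stood last.

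Genes that work with the members were followed by lists of relatives. In the 6 tested comparisons 0 of the 87 (pre-treatment) or 88 (delayed) tested genes of the 9 lists passed in either direction with edgeR. At an unadjusted p under 0.05 in edgeR there were 3, 4 and 5 of 87 in the pre-treatment experiment, beside 6.03%, 6.22% and 7.12% of all genes. In the delayed treatment experiment there were 5, 4 and 8 of 88, beside 3.91%, 3.88% and 4.84%. The comparisons stand in the order given above. Between control and other mice of the delayed treatment experiment, 5 of the 88 listed genes had control mice above and 2 below all other mice, beside 1.71% and 1.54% of all genes. Among them, Entpd4b and Pisd share sequence with members chosen on this contrast, and Pisd-ps2 is a further copy of Pisd. These copies are not independent of the choice, so nothing is read from the count. No list had a median log2 difference beyond 0.15 in size, beside 0.007 for all genes. Among 13 other GABA-A receptor subunits, 0 separated the control mice (median log2 difference -0.05), the widest values being those of Gabra6 at 0.76 (SE 0.91) and Gabrg1 at 0.28 (SE 0.28). Among 13 tested genes of the Crumbs polarity complex, which holds cell junctions in place with Crb1, 0 did so (median 0.01), with Pard3 at -0.31 (SE 0.12) and Lin7b at 0.31 (SE 0.12). The 3 relatives of Wdfy1 ran from -0.31 to -0.14, with Wdfy4 at -0.31 (SE 0.22) and Wdfy3 at -0.14 (SE 0.07).

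Of 17 genes of mitochondrial NADPH supply and peroxide removal listed around Nnt, 1 had control mice above all others (median 0.08). This was the mitochondrial peroxiredoxin Prdx3, at 80.8 to 93.5 CPM in control mice and 64.3 to 77.8 CPM in the other 9. The mitochondrial NAD kinase Nadk2 was at 19.6 to 68.7 CPM in control mice, with a median of 21.9, and at 56.8 to 69.9 CPM in the others, so that 1 control mouse lay with the other 9. Of 7 nucleoside diphosphohydrolases tested, 2 had control mice below all others (median 0.01), Entpd4b at -0.75 and, named after its values were seen, Entpd1 at -0.17 on the log2 scale, and Entpd7 was at -0.26 (SE 0.12). In the list of peptide degradation around Ide, 2 of 11 had control mice above all others (median 0.04), the oligopeptidase Thop1 at 40.0 to 47.2 against 33.9 to 37.9 CPM and, named after its values were seen, the mitochondrial peptidase Pitrm1 with a log2 difference of 0.15, while the insulin receptor Insr had the widest value at -0.75 (SE 0.27) with overlap. The list around Pisd had 2 of 7 above all others (median 0.15), Pisd and Pisd-ps2, and Selenoi varied from 6.72 to 79.2 CPM among the 9 other mice. None of 12 SCAN zinc finger genes separated the control mice (median 0), and Zkscan16 had the widest value at -0.45 (SE 0.19).

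Further genes that vary between C57BL/6 colonies did not separate the control mice of the delayed treatment experiment by their level. A missense change cannot be read from counts per gene, and genes with few counts could not show a difference. Nothing about the substrain is therefore read from these levels. Cyfip2, in which C57BL/6N mice carry a missense change, was at 705 to 784 CPM in the 12 mice of the delayed treatment experiment and at 631 to 770 CPM in the 9 of the pre-treatment experiment. Dock2 was at 2.95 to 4.35 and 2.78 to 4.03 CPM in the same order. Mmrn1 had 0 to 23 and 0 to 5 counts per mouse, too few to compare. Nlrp12 and Pdzk1 had at most 16 counts in any mouse. Of the 5 genes of this list tested in the delayed treatment experiment, 0 had control mice that did not overlap with the others.

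Over the 12 mice of the delayed treatment experiment, the 7 members that separated the control mice followed one another closely in size. Since they are the members whose control mice lay apart in these same mice, this largely follows from that gap. The absolute Pearson correlation of log2(CPM + 1) over their 21 pairs was 0.723 to 0.983, with a median of 0.927, and it was negative between the genes higher and the genes lower in control mice. Over the 9 mice without the control mice the median was 0.259, and over the 9 pre-treatment mice 0.326. The genes most like a member were often other members or other genes that set the control mice apart. For Crb1 they were Gm15446 (r = 0.982), Ralgps2 (0.967) and Zkscan3 (0.965), for Gm15446 they were Crb1, Gm27177 (0.978) and the mitochondrial tRNA gene mt-Tg (0.977), and for Zkscan3 they were Gm21093 (0.967), Crb1 and Gm15446 (0.964). For Wdfy1 they were Olfr560 (0.970), Gng3 (0.954) and Gabra2 (0.949), for Gabra2 Mllt11 (0.956), Zfp612 (0.952) and Wdfy1, and for Pisd-ps1 Wdfy1 (0.925), Mllt11 (0.921) and Pisd-ps2 (0.915). Entpd4 was most like Mfn2 (0.919), Entpd4b (0.902) and Gm37226 (0.899), Nnt most like Nek9 (0.906), Gnb5 (0.905) and Sepsecs (0.892), and Ide most like Zdhhc24 (0.874), Gm9255 (0.863) and Rab6b (0.863). Each of these values is over 12 libraries that share the 3 control mice, and they are given as a description. The values of Nnt also include irisin mouse 1 and MPTP and irisin mouse 2, the lowest mice and the only ones with counts on both entries.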

How the data were processed

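RNA-seq libraries of 21 mice were sequenced on an Illumina instrument, and the authors deposited raw counts per gene from featureCounts together with FPKM values, in 1 table per experiment. The submitters' processing notes name HISAT, StringTie, edgeR and the build mm9, without versions, whereas 100% and 99.64% of the genes found in GENCODE M21 have its GRCm38 start. Counts of the 2 entries named Nnt were summed. Genes were filtered with filterByExpr (least count 10, least total 15), leaving 22640 and 21921 genes, scaled by TMM and tested two-sided with edgeR 4.0.16 in R 4.3.3, all groups of an experiment in 1 fit. P-values were adjusted by the Benjamini-Hochberg method, with a threshold of 0.05. Each standard error was derived from the log2 fold change and its F statistic.

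Every member was named, and in each list the 2 genes with the widest difference and any gene passing a test, the 3 genes most correlated with each member, and its nearest tested neighbours. The members, lists and rule were chosen with earlier results of these data known. Alternatives were median ratio scaling, no filter on low counts, a replicate block, DESeq2 1.42.0, limma 3.58.1 on log2(FPKM + 1) and log2(FPKM + 0.1), only the 2 compared groups, and leaving out each mouse. Correlations used log2(CPM + 1). P-values measure the spread between mice, since each library is 1 mouse, and an exact permutation test of 3 against 3 mice could not go below 0.1. The edgeR step was tested on simulated counts. A gene that the naming rule covers is not reported here.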

Additional observations from a re-analysis of the deposited data

How the results depend on the processing

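Of 54 member values in the 6 tested comparisons, 0 passed the threshold. Under an alternative 2 did, both of Zkscan3 against the pre-treatment control mice. DESeq2 without the edgeR filter called 1 member in each of these comparisons. Leaving out each mouse in turn gave 0 to 1 members for MPTP against control mice in the pre-treatment experiment, the 1 being Zkscan3 without MPTP mouse 3. Of the 54 values, 25 changed sign under at least 1 alternative, none larger than 0.27 in size. For irisin and then MPTP against MPTP, Zkscan3 turned from 0.01 to between -0.20 and 0.21 when mice were left out in turn, and Wdfy1 from -0.07 to between -0.20 and 0.07.

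The number of genes called among all genes depended more on the choice. For MPTP against control mice it was 5, and 2 with limma on log2(FPKM + 0.1), 10 with only the 2 compared groups, 90 with unfiltered DESeq2 and 4 to 17 with each mouse left out. For irisin and then MPTP against MPTP it was 16, and 10 with limma on log2(FPKM + 0.1), 169 with unfiltered DESeq2 and 10 to 26 with each mouse left out. For irisin and then MPTP against control mice it was 16, and 9 with all genes with any count, 6 and 9 with limma on log2(FPKM + 1) and log2(FPKM + 0.1), 190 with unfiltered DESeq2 and 5 to 20 with each mouse left out. In the delayed treatment experiment, MPTP and then irisin against MPTP gave 1, and 2 with all genes with any count, 2 with limma on log2(FPKM + 0.1), 9 with only the 2 groups, 34 with unfiltered DESeq2 and 1 to 7 with each mouse left out. MPTP and then irisin against irisin alone gave 1, and 2 with limma on log2(FPKM + 0.1), 3 with only the 2 groups, 35 with unfiltered DESeq2 and 0 to 10 with each mouse left out. MPTP against irisin alone gave 8, and 5 and 4 with limma on log2(FPKM + 1) and log2(FPKM + 0.1), 69 with unfiltered DESeq2 and 1 to 19 with each mouse left out. Unfiltered here means without the edgeR filter on low counts, and DESeq2 kept its own default filter on mean counts. The DESeq2 alternative changes both the tool and the filter, and the cause was not tested.

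Mice with the same number in different groups were separate animals. Their deviations from the group means correlated at -0.102 to 0.166 (pre-treatment) and -0.086 to 0.052 (delayed). The medians were -0.013 and -0.026, beside 0.007 and 0.015 for mice with different numbers. A factor that touches few genes would hardly show in such correlations, and whether same-numbered mice shared one was not tested. With the replicate number as a block, the comparisons of the pre-treatment experiment gave 2, 8 and 2 genes in place of 5, 16 and 16, 0 members passed in any comparison, and Wdfy1 for irisin and then MPTP against MPTP turned from -0.07 to 0.00.

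The differences between control and other mice kept their direction for the 7 members with separated control mice under all alternatives. On the log2(FPKM + 1) scale, which understates low genes, they shrank to -2.32 for Gm15446 and -0.25 for Crb1. The genes most like a member were not stable, since 7 of the 9 members shared 0 of 3 with those found by Spearman's correlation and 8 of 9 shared 0 of 3 with those found without the control mice. Crb1 and Gm15446 rest on 21 to 78 counts per control mouse, so their folds are the least precise.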

Other observations

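Of the 40 genes that passed in the contrast of the control mice with the other 9 mice of the delayed treatment experiment, 34 were not members, and those named here were chosen after their values were seen. On chromosome 4 lay 9 of the 34, all lower in control mice, beside 1306 of the 21921 tested genes (5.96%). They were Gm10591, Gm10599, Gm17081, Gm50470, Gm13301, Gm5859, Gm17167, Gm21093 and Gm13303. Gm10591 was at 0 in the control mice and at 1.31 to 3.33 CPM in the other 9, and Gm21093 at 3.21 to 6.28 and 11.0 to 20.6 CPM. These are predicted genes, and counting may split reads among such copies, so each of their levels is uncertain by itself.

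Among named protein-coding genes, Aim2, a sensor of DNA in the cytosol, was at 1.30 to 1.95 CPM in control mice and 3.18 to 5.31 CPM in the other 9. Ralgps2, an exchange factor of Ral GTPases, was at 20.6 to 23.1 and 32.2 to 44.5 CPM. Gng3, a neuronal G protein γ subunit, was at 255 to 288 and 200 to 222 CPM, and Mllt11 at 323 to 335 and 270 to 296 CPM. The mitochondrial genes mt-Tg and mt-Cytb moved apart, mt-Tg at 0.331 to 0.918 against 3.16 to 4.79 CPM and mt-Cytb at 9158 to 10450 against 7453 to 8664 CPM.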
